A study of Mus musculus with 24 samples.

Results

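The subunits of the NMDA and AMPA receptors, the main ionotropic glutamate receptors of the brain, were followed through the transcriptomes of the hippocampus (HIP) and entorhinal cortex (EC) of Ts65Dn mice. The members were the 10 rows of the count table whose Ensembl identifiers map to Grin1, Grin2a, Grin2b, Grin2c, Grin2d, Grin3a, Gria1, Gria2, Gria3 and Gria4, out of 55385 genes in the table, and all 10 passed the filter on low counts in each comparison. Ts65Dn mice model Down syndrome. They carry an additional minichromosome that joins a segment of mouse chromosome 16 (Mmu16), homologous to human chromosome 21, to a proximal segment of chromosome 17 (Mmu17), and this second segment is not homologous to chromosome 21. RNA-Seq had been made from the HIP and the EC of 6 male Ts65Dn mice and 6 male wild-type (wt) littermates aged 5 to 6 months, with 1 library per region and mouse, hence 24 libraries in 4 groups of 6. Both genotypes shared a hybrid F1 B6C3B background.

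Library totals ranged from 23128589 to 40476492 counts. Genes of the Mmu16 segment had a median level of 1.43 to 1.54 times that of wt in HIP libraries and 1.46 to 1.55 times in EC libraries in 5 of the 6 Ts65Dn mice. In both libraries labelled Ts65Dn replicate 3 this value was 1.02 (HIP) and 0.991 (EC), within or beside the wt range, so that these libraries went against their label. The main tests of the subunit genes that include Ts65Dn mice are given with and without them. The exception is the genotype by region tests of subunit ratios, given with all mice only. Counts of groups that do not overlap, fits with a mouse or replicate block and some other settings are also given with all mice only. Markers fixed for hippocampal fields summed to 899 to 988 CPM (counts scaled to a common library total) in the wt HIP and 579 to 721 CPM in the wt EC, and cortical markers to 180 to 409 CPM and 649 to 803 CPM. The sums stood in the order that the tissue labels call for, but not every marker did. At an adjusted p under 0.05, 6 of 8 hippocampal markers were higher and 2 lower in the wt HIP. Of 8 cortical markers 6 were lower there and 1 higher. None of the 10 members lies in a triplicated segment. Grin2a is on chromosome 16, but 75.1 Mb from the triplicated part.

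NMDA receptors are tetramers of the obligatory GluN1 subunit, encoded by Grin1, with GluN2 subunits (Grin2a to Grin2d) or the GluN3A subunit (Grin3a). They open when glutamate and a co-agonist bind while the membrane is depolarized, and the calcium they admit triggers lasting changes of synaptic strength. AMPA receptors are tetramers of GluA1 to GluA4 (Gria1 to Gria4), and they carry most of the fast excitatory current. Both families are central to hippocampal learning. In the forebrain the GluN2 subunit set shifts from GluN2B towards GluN2A after birth, and GluA2 makes AMPA receptors nearly impermeable to calcium once its pore codon has been edited in the RNA.

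The pore loop shows how the families relate, and the reference sequence around its selectivity codon is printed for 6 members because this is the position that decides calcium passage. The sequences were read from reference transcripts (GENCODE vM21) and placed on GRCm38. They are given on the coding strand, 5′ to 3′, with the codon in capitals (the Q/R site of AMPA subunits and the N site of NMDA subunits). Each lies in a coding exon.
Gria1, chr11:57243079-57243111, + strand, exon 11 of 16: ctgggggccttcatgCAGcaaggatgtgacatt
Gria2, chr3:80706896-80706928, - strand, exon 11 of 16: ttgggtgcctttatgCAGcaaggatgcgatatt
Gria3, chrX:41610250-41610282, + strand, exon 11 of 16: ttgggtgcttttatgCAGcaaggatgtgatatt
Gria4, chr9:4464122-4464154, - strand, exon 12 of 17: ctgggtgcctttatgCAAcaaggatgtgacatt
Grin1, chr2:25297371-25297403, - strand, exon 14 of 21: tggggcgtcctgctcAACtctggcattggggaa
Grin2a, chr16:9653546-9653578, - strand, exon 10 of 14: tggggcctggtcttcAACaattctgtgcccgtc
In these reference sequences all 4 AMPA subunits encode glutamine at the site (CAG or CAA), and the 2 NMDA subunits shown encode asparagine (AAC). The arginine of mature GluA2 comes from editing of the Gria2 codon by ADAR2, the product of Adarb1. Counts per gene pool edited and unedited transcripts, so editing itself was not measured here.

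On the scale of CPM per kb of exon sequence, which allows genes of different length to be compared, Gria1 was the most abundant member in all 4 groups. Its level was 198 ± 9.87 CPM per kb (mean ± SD, n = 6) in the wt HIP and 66.1 ± 4.36 in the wt EC. Gria2 came next, at 64.5 ± 2.66 in the wt HIP and 42.4 ± 4.0 in the wt EC, and its libraries did not overlap with those of Gria1 in any group. In the wt HIP the order then ran through Grin2b (30.8 ± 5.16), Grin1 (30.0 ± 2.41), Gria3 (25.2 ± 2.04) and Grin2a (24.1 ± 2.73), in which Grin2b overlapped with Grin1 and Gria3 with Grin2a. Gria4 (12.5 ± 1.36), Grin2c (7.30 ± 0.757), Grin3a (3.90 ± 0.350) and Grin2d (1.13 ± 0.186) followed, each apart from its neighbour. In the wt EC the third to sixth places went to Grin1 (32.4 ± 1.78), Gria3 (31.5 ± 1.79), Grin2b (29.0 ± 5.91) and Gria4 (24 ± 1.61), whose neighbours overlapped throughout. Grin2a (13.9 ± 1.57), Grin2c (8.39 ± 0.900), Grin3a (6.85 ± 0.854) and Grin2d (1.62 ± 0.102) were below them, each apart from the next. Levels per kb depend on the length used. With the longest coding transcript in place of all exons, Gria1 still led in 3 groups, but Grin1 came first in the wt EC (73.5 CPM per kb, against 72.0 for Gria1).

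**Figure D1:**
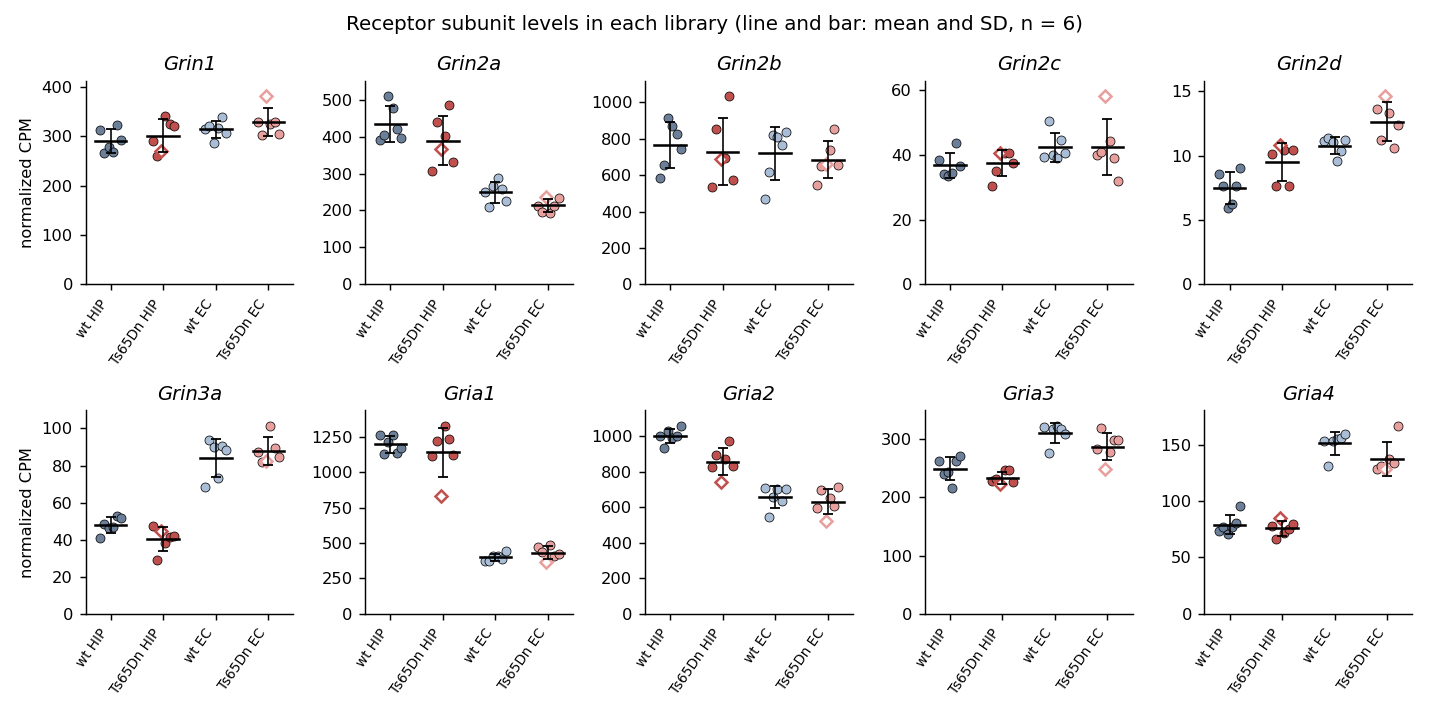
Level of each subunit gene in each library, in CPM on 1 normalization over the 24 libraries (vertical axis from 0), for the wt and Ts65Dn HIP and EC; lines and bars are the mean and SD of 6 mice, and open diamonds are the libraries labelled Ts65Dn replicate 3. Gria1, Gria2 and Grin2a stood higher in the HIP and Grin3a, Gria3 and Gria4 higher in the EC without overlap in either genotype, while the 2 genotypes overlapped for every gene.

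The first comparison asked how the subunit set differs between the HIP and the EC of the same wt mice. Of the 10 members, 8 passed the test, 3 of them higher and 5 lower in the HIP. This was a comparison in which 55.2% of all 17196 genes passed, 28.1% higher and 27.1% lower, so a call alone says little here, and the subunits are described by the size of their differences. In the Ts65Dn mice 7 members passed, 3 higher and 4 lower, beside 48.2% of all genes (24.8% higher and 23.5% lower). With Ts65Dn replicate 3 left out these were again 7 members, 3 higher and 4 lower, beside 43.2% of all genes, with log2 differences of 1.44 for Gria1, 0.92 for Grin2a, 0.44 for Gria2, -0.31 for Gria3, -0.90 for Gria4, -0.40 for Grin2d and -1.15 for Grin3a, and of 0.11 for Grin2b, -0.04 for Grin1 and -0.08 for Grin2c, which did not pass. The region fits here and below did not use the pairing of the 2 libraries of a mouse. Their SEs and p-values treat those libraries as independent. With the mouse as a block, 9 members passed in wt mice (3 higher and 6 lower), beside 10541 of 17196 genes. In Ts65Dn mice 7 passed with the block (3 higher and 4 lower), beside 9055 of 17314 genes. Values below are CPM, which compare 1 gene between groups.

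Among the AMPA receptor genes, Gria1 differed most. The GluA1 subunit it encodes takes part in the insertion of receptors during long-term potentiation at hippocampal synapses. Gria1 (chr11:57011387-57330244) ran from 1131 to 1265 CPM in the wt HIP (median 1193) against 375 to 444 CPM in the wt EC (median 395). No HIP library came near an EC library, and the fitted difference was 1.58 on the log2 scale (SE 0.05, 2.99-fold, adjusted p = 1.9e-11). In the Ts65Dn mice it was 1.41 (SE 0.10, adjusted p = 7.3e-08).

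Gria2 (chr3:80681450-80802835), the gene of the subunit that limits calcium entry, was also higher in the HIP. It ran from 938 to 1062 CPM in the wt HIP (median 1001) against 548 to 707 CPM in the wt EC (median 680). The groups were again apart, although by less than for Gria1, with a log2 difference of 0.60 (SE 0.06, 1.51-fold, adjusted p = 1.5e-06) in wt and 0.44 (SE 0.08, adjusted p = 0.00033) in Ts65Dn mice.

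Gria3 (chrX:41400854-41678601) and Gria4 (chr9:4417896-4796234) went the other way. GluA3 pairs mainly with GluA2, and GluA4 is known for the fast receptors of interneurons. Gria4 ran from 71.1 to 95.3 CPM in the wt HIP (median 76.9) against 131 to 160 CPM in the wt EC (median 154). Every HIP library was below every EC library, and the difference was -0.94 (SE 0.07, fold 0.520, adjusted p = 4.7e-08) in wt and -0.85 (SE 0.07, adjusted p = 3.9e-07) in Ts65Dn mice. Gria3 ran from 215 to 270.2 CPM in the wt HIP (median 253) against 276 to 323 CPM in the wt EC (median 317). The gap between the groups was narrow but open in both genotypes, at -0.32 (SE 0.06, adjusted p = 0.00028) in wt and -0.29 (SE 0.06, adjusted p = 0.00068) in Ts65Dn mice.

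Among the GluN2 genes the HIP had more Grin2a and not detectably more Grin2b. GluN2A gives NMDA receptors fast kinetics, and GluN2B slows them and binds CaMKII. Grin2a (chr16:9567898-9995560) ran from 390 to 509 CPM in the wt HIP (median 413) against 210 to 288 CPM in the wt EC (median 253). These groups were apart, and the log2 difference was 0.79 (SE 0.09, 1.73-fold, adjusted p = 2.3e-06) in wt and 0.86 (SE 0.10, adjusted p = 1.0e-05) in Ts65Dn mice. Grin2b (chr6:135713233-136173511) ran from 582 to 911 CPM in the wt HIP (median 786) against 470 to 837 CPM in the wt EC (median 787). Its regions overlapped almost wholly, and the log2 difference of 0.08 had a 95% interval from -0.22 to 0.39 (adjusted p = 0.65), which still allows a difference of 1.31-fold. In Ts65Dn mice it was 0.10 (adjusted p = 0.63).

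The rarer NMDA receptor genes were lower in the HIP. Grin3a (chr4:49661611-49845744) encodes GluN3A, which lowers the calcium permeability of the receptor. It ran from 40.8 to 52.9 CPM in the wt HIP (median 47.7) against 68.5 to 93.8 CPM in the wt EC (median 89.1). The groups were apart in both genotypes, with a log2 difference of -0.82 (SE 0.08, fold 0.567, adjusted p = 1.2e-06) in wt and -1.11 (SE 0.10, adjusted p = 4.7e-07) in Ts65Dn mice. Grin2d (chr7:45831883-45878378), the GluN2 gene of interneurons and of the developing brain, ran from 5.91 to 9.02 CPM in the wt HIP (median 7.65) against 9.56 to 11.3 CPM in the wt EC (median 11.1). Wt libraries did not overlap (-0.53, SE 0.10, adjusted p = 0.00045), whereas in Ts65Dn mice they did, at -0.41 (SE 0.11, adjusted p = 0.0081). Grin2d is uncertain, because its span overlaps Kdelr1 and an antisense gene, Gm45441, on the opposite strand, with up to 2005 and 171 counts in a library beside a lowest Grin2d count of 150, and the strand setting of the counting is not given in the sources used here.

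Grin2c (chr11:115249169-115267243), which in the forebrain is expressed largely in astrocytes, ran from 33.5 to 43.6 CPM in the wt HIP (median 35.5) against 38.8 to 50.5 CPM in the wt EC (median 40.3). The groups overlapped. The difference of -0.21 (SE 0.08) passed in wt mice (adjusted p = 0.037) but not without wt replicate 2, 3, 4 or 6 (adjusted p = 0.16, 0.071, 0.061 and 0.068), and in Ts65Dn mice it was -0.18 (adjusted p = 0.25). Grin1 (chr2:25291181-25319187), the gene of the obligatory subunit, ran from 267 to 323 CPM in the wt HIP (median 286) against 287 to 339 CPM in the wt EC (median 316). This overlap left a difference of -0.12 (SE 0.06, adjusted p = 0.094) in the fit without the pairing. It passed with the mouse as a replicate block, which keeps the pairing (adjusted p = 0.035). It also passed with GC content and length removed (adjusted p = 0.049), and in no other setting. In Ts65Dn mice the difference was -0.12 (adjusted p = 0.22).

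**Figure D2:**
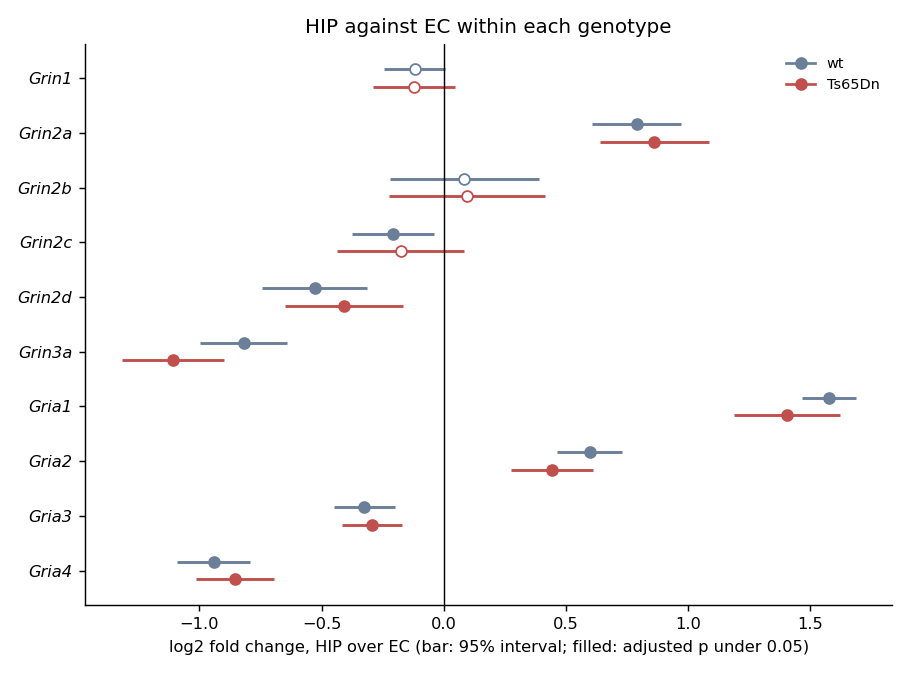
Log2 fold change of the HIP over the EC (horizontal axis) for each subunit gene in wt and Ts65Dn mice, with 95% intervals from the edgeR fits without the mouse as a block. Filled points had an adjusted p under 0.05. Gria1, Grin2a and Gria2 lay to the right of 0 and Gria4, Grin3a, Grin2d and Gria3 to the left in both genotypes.

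The regions of 7 members did not overlap in wt mice, beside 34% of all genes tested, and those of 6 did not in Ts65Dn mice, beside 27.2%. Cell type markers also differed between the regions. All 6 oligodendrocyte markers were higher in the wt HIP, with summed levels of 6703 to 9188 CPM against 1398 to 2699 CPM in the wt EC. Of 5 neuronal markers 4 were lower in the HIP and none higher (4920 to 5723 CPM against 6466 to 7853 CPM), and of 7 interneuron markers 3 were lower and none higher (701 to 961 CPM against 953 to 1077 CPM). Choroid plexus markers ranged from 87.3 to 4828 CPM between wt HIP libraries and from 11.5 to 48.9 CPM in the EC, and 4 of 6 striatal markers were lower in the HIP and 1 higher (62.8 to 82.3 CPM against 171 to 201 CPM). All 5 endothelial markers were lower in the HIP (163 to 191 CPM against 210.1 to 262 CPM), and of 5 microglial markers 3 were lower and none higher (223 to 258 CPM against 256 to 345 CPM). Of 5 excitatory neuron markers 3 were lower and 1 higher (5362 to 5984 CPM against 5779 to 6797 CPM). Of 6 astrocyte markers, which stand beside Grin2c, 3 were higher and 2 lower (1771 to 2040 CPM against 1496 to 1905 CPM). The part of these markers in the subunit differences was not tested. In bulk tissue fewer cells of a type and less RNA per cell cannot be told apart.

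Expressed as shares of their family, on the scale of CPM per kb, the AMPA subunits were more unequal in the HIP. Gria1 made up 65.9% ± 1.67 (SD, n = 6) of the AMPA total in the wt HIP and 40.3% ± 1.77 in the wt EC. Gria2 made up 21.5% ± 0.728 and 25.8% ± 1.23, so its share was smaller in the HIP although its level was higher. Gria3 took 8.41% ± 0.722 in the wt HIP and 19.2% ± 0.745 in the wt EC, and Gria4 4.18% ± 0.471 and 14.6% ± 0.377. No share range of these 4 genes overlapped between the wt regions. The summed AMPA level was 300.4 ± 10.3 CPM per kb in the wt HIP and 164 ± 9.89 in the wt EC.

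Among GluN2 genes Grin2b had the largest share in both regions, 48.4% ± 2.91 in the wt HIP and 54.3% ± 5.48 in the wt EC. Grin2a had 38.1% ± 1.96 and 26.5% ± 3.61, with no overlap between the regions. Grin2c had 11.7% ± 1.87 and 16.1% ± 2.94, and Grin2d 1.82% ± 0.471 and 3.11% ± 0.534. The share of Grin2c overlapped between regions and that of Grin2d did not. These shares rest on exon lengths. With the longest coding transcript, Gria1 fell to 57.5% and 32.3% of the AMPA total in the wt HIP and EC, and Gria3 came to 12.8% and 26.8%.

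**Figure D3:**
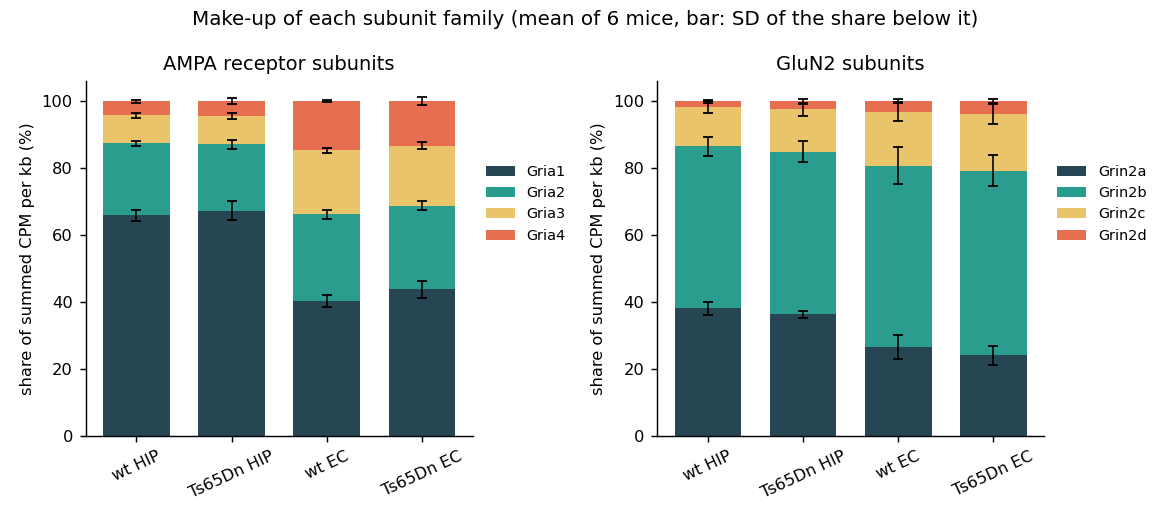
Mean share (%, vertical axis) of each gene in the summed CPM per kb of the 4 AMPA receptor genes (left) and the 4 GluN2 genes (right) in each group of 6 mice; bars on each segment are the SD of its share. Gria1 took 65.9% of the AMPA total in the wt HIP and 40.3% in the wt EC, and Grin2a 38.1% and 26.5% of the GluN2 total.

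A ratio of 2 genes within a library needs no normalization for depth, and it was tested within mice. The ratio of Grin2a to Grin2b counts ran from 0.509 to 0.670 in the wt HIP (median 0.553) against 0.269 to 0.531 in the wt EC (median 0.339), and was higher in the HIP of 6 of 6 wt mice. In Ts65Dn mice it ran from 0.468 to 0.582 in the HIP (median 0.553) and from 0.248 to 0.388 in the EC (median 0.330), again higher in the HIP of 6 of 6. The mean within-mouse difference was 0.70 on the log2 scale in wt and 0.78 in Ts65Dn mice. Gria1 counts exceeded those of Gria2 in all HIP libraries and in no EC library. Their ratio ran from 1.10 to 1.28 in the wt HIP (median 1.19) against 0.531 to 0.686 in the wt EC (median 0.614), and in Ts65Dn mice from 1.11 to 1.52 (median 1.35) and from 0.594 to 0.790 (median 0.681). The difference was 0.98 in wt and 0.95 in Ts65Dn mice, in the same direction in 6 of 6 mice of each genotype. Each of the 4 tests gave p = 0.031 (two-sided exact sign-flip test over 6 mice, adjusted over the 4 tests 0.031), the smallest p that 6 pairs can give. Without Ts65Dn replicate 3 the differences in Ts65Dn mice were 0.82 (Grin2a to Grin2b) and 1.005 (Gria1 to Gria2), each in 5 of 5 mice, where no exact test can go below p = 0.0625.

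**Figure D4:**
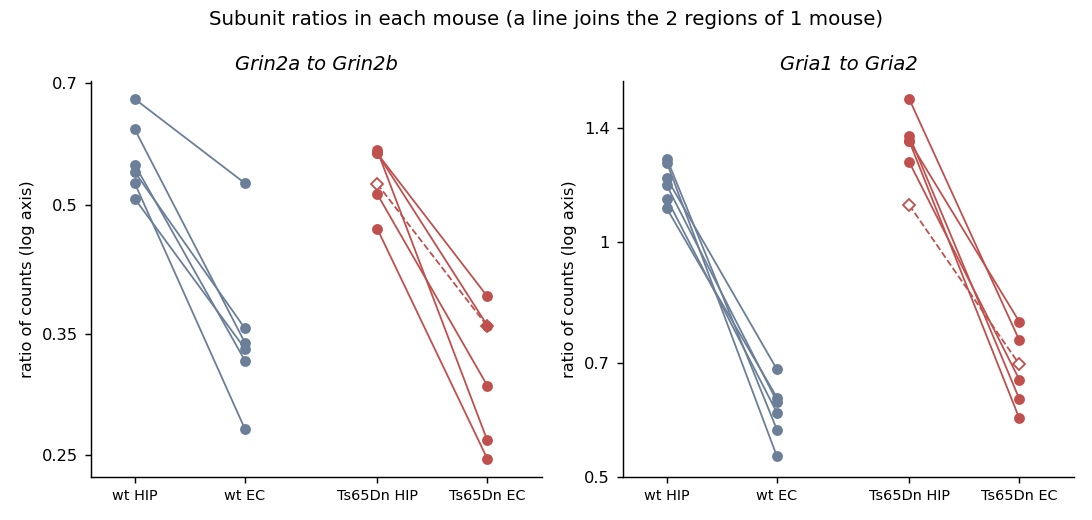
Ratio of Grin2a to Grin2b counts (left) and of Gria1 to Gria2 counts (right) in each mouse, on a log axis, with a line joining the HIP and EC of 1 mouse; open diamonds are the mouse labelled Ts65Dn replicate 3. Each line falls from the HIP to the EC in all 12 mice, and the 2 genotypes overlap.

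The second comparison asked whether the subunit genes differ between Ts65Dn and wt mice within a region. In the HIP none of the 10 members passed the test, beside 1.04% of 17355 genes. At an unadjusted p under 0.05 there were 3 members (Gria2, Grin2d and Grin3a), beside 14.8% of all genes. At an adjusted p under 0.05, DESeq2 called 1 of the 10, Gria2, beside 3.58% of 16466 genes. In the EC again none passed, beside 2.5% of 17049 genes, and 4 (Grin2a, Grin2d, Gria3 and Gria4) had an unadjusted p under 0.05, beside 19% of all genes. DESeq2 called no member in the EC, beside 7.43% of 14773 genes. Without Ts65Dn replicate 3, edgeR again called no member in either region, beside 1.82% (HIP) and 2.79% (EC) of all genes. An unadjusted p under 0.05 was then found for the same 3 members in the HIP, beside 17% of all genes, and for Grin2a and Gria1 in the EC, beside 19%. The genotypes overlapped for all 10 members in both regions, where 1.69% (HIP) and 2.42% (EC) of all genes did not overlap.

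Gria2 had the lowest p in the HIP. It ran from 745 to 973 CPM in the Ts65Dn HIP (median 853), against 938 to 1062 CPM in the wt HIP (median 1001). The 2 groups met in a single pair, in which 1 Ts65Dn library exceeded 1 wt library, out of 36 pairs. The log2 fold change was -0.23 (SE 0.06, 95% interval -0.36 to -0.10, fold 0.854) with an adjusted p of 0.096. It passed without Ts65Dn replicate 5 (-0.27, adjusted p = 0.041) and in DESeq2 (-0.23, adjusted p = 0.015). The library labelled Ts65Dn replicate 3 was the lowest of all, and without it the change was -0.19 (adjusted p = 0.085, in DESeq2 0.014). In the EC Gria2 ran from 523 to 716 CPM in Ts65Dn mice (median 631), and its change was -0.08 (adjusted p = 0.66), or -0.03 without that mouse (adjusted p = 0.87).

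Grin2d and Grin3a were the other members with a low p in the HIP. Grin2d ran from 7.61 to 10.8 CPM in the Ts65Dn HIP (median 10.3) and from 10.6 to 14.6 CPM in the Ts65Dn EC (median 12.8), and its medians exceeded those of wt in both regions. Its HIP estimate was 0.34 on the log2 scale (SE 0.13, adjusted p = 0.23) and its EC estimate 0.21 (SE 0.08, adjusted p = 0.19), and without Ts65Dn replicate 3 these were 0.30 and 0.16 (adjusted p = 0.27 and 0.29). Grin3a ran from 29.0 to 47.6 CPM in the Ts65Dn HIP (median 42.0) and from 81.9 to 102 CPM in the Ts65Dn EC (median 85.8). Its change was -0.24 (SE 0.10, adjusted p = 0.30) in HIP libraries and 0.05 (SE 0.08, adjusted p = 0.81) in EC libraries, or -0.27 and 0.06 without that mouse (adjusted p = 0.22 and 0.75).

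Grin2a had the lowest p in the EC. It ran from 192 to 237 CPM in the Ts65Dn EC (median 212), against 210 to 288 CPM in the wt EC (median 253). Ts65Dn libraries exceeded wt libraries in 6 of 36 pairs, and the log2 fold change was -0.24 (SE 0.08, 95% interval -0.40 to -0.07, fold 0.848, adjusted p = 0.12). It passed without wt replicate 2 (-0.29, adjusted p = 0.046). Without the library labelled Ts65Dn replicate 3, which was the highest Ts65Dn value, the change was -0.27 with an adjusted p of 0.084 in edgeR and 0.029 in DESeq2. In the HIP Grin2a ran from 308 to 484 CPM in Ts65Dn mice (median 384), with a change of -0.16 (SE 0.11, adjusted p = 0.54), or -0.14 without that mouse (adjusted p = 0.57).

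Gria3 and Gria4 were the remaining members with a low p in the EC. Gria4 ran from 128 to 167 CPM in the Ts65Dn EC (median 132) and Gria3 from 248 to 318 CPM (median 290). Both medians were below those of wt, at log2 fold changes of -0.16 (SE 0.07, adjusted p = 0.24) and -0.13 (SE 0.06, adjusted p = 0.26). Gria4 passed without Ts65Dn replicate 6, which was far above the other 5 (-0.22, adjusted p = 0.041). The EC changes without Ts65Dn replicate 3 were -0.14 for Gria4 and -0.09 for Gria3 (adjusted p = 0.32 and 0.37), and neither then had an unadjusted p under 0.05. In the HIP Gria4 had a change of -0.06 (adjusted p = 0.74) and Gria3 of -0.09 (adjusted p = 0.47), or -0.10 and -0.08 without that mouse (adjusted p = 0.52 and 0.51).

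Gria1, Grin1, Grin2b and Grin2c had no unadjusted p under 0.05 in either region with all libraries. Gria1 ran from 830.3 to 1330.0 CPM in the Ts65Dn HIP (median 1171) and from 364 to 487 CPM in the Ts65Dn EC (median 432), and the lowest value of either group was the library labelled Ts65Dn replicate 3. Its HIP estimate was -0.07 on the log2 scale (95% interval -0.26 to 0.13) and its EC estimate 0.10 (-0.04 to 0.24), and without that mouse 0.0067 and 0.14 (adjusted p = 0.97 and 0.20). For Grin1 these were 0.05 (-0.11 to 0.21) and 0.05 (-0.08 to 0.18), whose upper bounds are 1.16-fold and 1.13-fold. Grin2b was the least precise, at -0.07 (-0.41 to 0.26) and -0.09 (-0.38 to 0.20). Grin2c had 0.02 (-0.15 to 0.20) and -0.01 (-0.26 to 0.23). Without Ts65Dn replicate 3 the HIP estimates were 0.08 for Grin1, -0.06 for Grin2b and -0.00074 for Grin2c (adjusted p = 0.61, 0.90 and 0.998), and the EC estimates -0.0020, -0.08 and -0.13 (adjusted p = 0.99, 0.82 and 0.46).

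**Figure D5:**
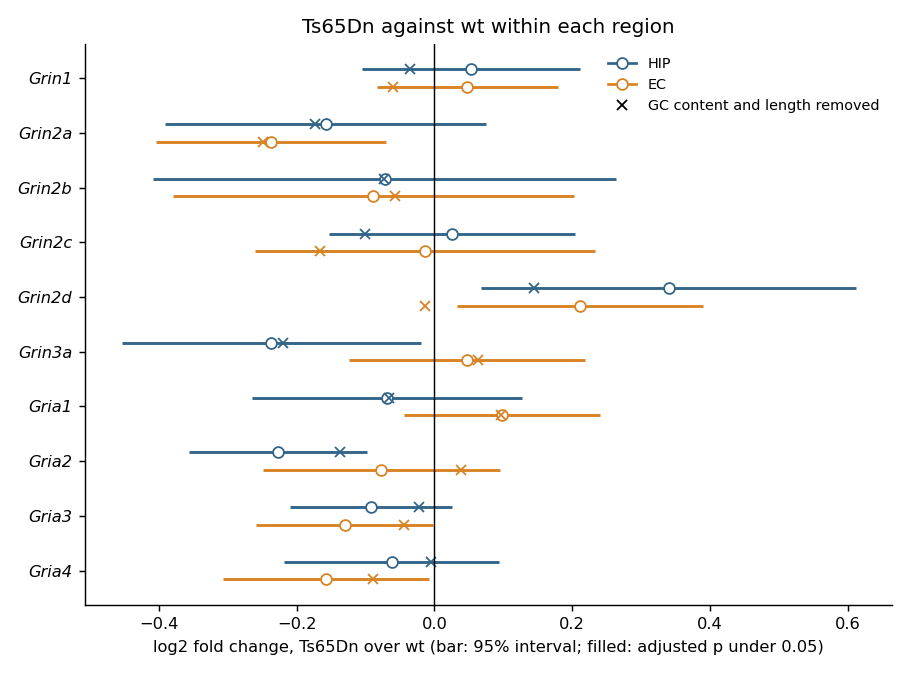
Log2 fold change of Ts65Dn over wt (horizontal axis) for each subunit gene in the HIP and the EC, with 95% intervals; open points did not pass at an adjusted p under 0.05, and crosses are the estimates after removal of trends with GC content and length. No point was filled, and the cross of Grin2d in the EC lay at -0.01 where its point lay at 0.21.

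Some cell type markers also moved with genotype. Olig1 and Olig2, oligodendrocyte lineage genes that lie in the triplicated Mmu16 segment, were higher in both regions (0.51 for each in HIP libraries, 0.54 and 0.56 in EC libraries). P2ry12, a microglial receptor gene, was lower (-0.27, adjusted p = 0.042, HIP, and -0.45, adjusted p = 0.023, EC), and in the EC Rora, a thalamic marker here, was lower (-0.28, adjusted p = 0.036) and Drd2, a dopamine receptor gene and striatal marker, higher (1.56, adjusted p = 0.025). These were the 5 markers called with all libraries, and each stayed past the threshold without Ts65Dn replicate 3, when Spock1 in the HIP (0.20, adjusted p = 0.046) and Rorb in the EC (-0.46, adjusted p = 0.042) passed as well. None of the 6 astrocyte markers passed, but 5 of 6 had negative estimates in each region, with summed levels of 1633 to 2022 CPM in the Ts65Dn HIP and 1262 to 1627 CPM in the Ts65Dn EC, overlapping those of wt given above. Their part in the genotype estimates of the subunits was not tested.

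The base composition of the libraries moved with genotype. The mean log2 CPM of genes below the lower quartile of GC content minus that of genes above the upper quartile had a median of 0.25 over the wt HIP libraries (0.12 to 0.37) and of 0.06 over those of Ts65Dn mice (-0.03 to 0.22). In the EC these medians were 0.13 (-0.01 to 0.24) and -0.06 (-0.28 to 0.08), so it was lower on average in Ts65Dn libraries and overlapped between genotypes. After the mean of each group was subtracted, the level of Gria2, with 41.3% GC, correlated with this measure across the 24 libraries with r = 0.63, and that of Grin2d, with 65.6% GC, with r = -0.73. These correlations describe libraries that share depth and base composition. With trends of GC content and length removed, Gria2 in the HIP had a change of -0.14 (adjusted p = 0.58), Grin2d of 0.14 (HIP) and -0.01 (EC), and Grin2a in the EC -0.25 (adjusted p = 0.16). No member passed in either region under this correction, beside 70 of 17355 genes (HIP) and 134 of 17049 genes (EC). The part of base composition in these differences was not tested further.

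The subunit ratios did not pass between genotypes. The log2 ratio of Gria1 to Gria2 was higher by 0.15 in the Ts65Dn HIP (p = 0.065) and by 0.17 in the Ts65Dn EC (p = 0.063), with p = 0.13 for both after adjustment over 4 tests (two-sided exact permutation test, 6 against 6 mice). Without the mouse labelled Ts65Dn replicate 3, the HIP difference was 0.20 (exact permutation p = 0.0087, adjusted p = 0.035) and the EC difference 0.17 (exact permutation p = 0.0996, adjusted p = 0.20). Such a ratio does not remove base composition. Gria1 has 48.7% GC and Gria2 41.3%, and their levels correlated with the GC measure above at r = 0.19 and r = 0.63. The part of base composition in the ratio was not tested. The log2 ratio of Grin2a to Grin2b differed by -0.08 (HIP, exact permutation p = 0.35) and by -0.16 (EC, exact permutation p = 0.40), or by -0.07 and -0.20 without that mouse (exact permutation p = 0.44 and 0.33).

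The last comparison asked whether the effect of the genotype differs between the regions, with a term for each mouse. None of the 10 members passed, and neither did any of the 18109 genes tested (0%). At an unadjusted p under 0.05 there were 2 members, Grin3a and Gria1, beside 4.1% of all genes (742), and DESeq2 called no member. Grin3a had the largest estimate, at -0.30 on the log2 scale (HIP minus EC, SE 0.10), and Gria1 the next, at -0.18 (SE 0.08), with an adjusted p of 0.9998 for each (edgeR). Without Ts65Dn replicate 3 no gene passed in edgeR and 3 did in DESeq2, none of them a member, and the members with an unadjusted p under 0.05 were Grin3a (-0.35) and Gria2 (-0.17), beside 6.45% of all genes, while Gria1 was at -0.14. The within-mouse difference of the Grin2a to Grin2b ratio between regions did not pass between genotypes (0.08, exact permutation p = 0.55), nor did that of Gria1 to Gria2 (-0.03, exact permutation p = 0.81). These ratio tests are given with all mice only, the mouse labelled Ts65Dn replicate 3 included.

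The genes that act with these receptors were described by lists. Their counts stand beside 1.04% (HIP) and 2.5% (EC) of all genes called between genotypes and 28.1% higher and 27.1% lower between the wt regions, and their medians beside 0.0047 (HIP), 0.0046 (EC) and 0.00037 (wt regions) over all genes. Of 20 genes of AMPA receptor auxiliary proteins, which set the gating and trafficking of the receptor, none passed between genotypes in either region. The gene with the lowest p was Cacng7 in the HIP (0.19, adjusted p = 0.30) and Cacng8, the TARP gamma-8 gene, in the EC (0.21, adjusted p = 0.095). Without Ts65Dn replicate 3 these were 0.12 (adjusted p = 0.36) and 0.18 (adjusted p = 0.14), and Shisa6, named after its values were seen, passed in the EC (0.45, adjusted p = 0.015). The list's median log2 fold change came to 0.04 (HIP) and 0.11 (EC). Between the wt regions 7 of the 20 were higher and 8 lower in the HIP, with a median of 0.00063. Shisa6, whose product keeps AMPA receptors from desensitizing, had 220.3 ± 25.9 CPM in the wt HIP and 21.7 ± 2.77 CPM in the wt EC, a log2 difference of 3.34 (SE 0.10, adjusted p = 1.2e-11). Gsg1l, an inhibitory auxiliary subunit, went the other way, with 38.5 ± 8.11 CPM and 133 ± 8.20 CPM (-1.79, SE 0.11, adjusted p = 8.8e-09).

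Of 20 genes of NMDA receptor signalling none passed between genotypes in the HIP, where Calm2 had the lowest p (-0.16, adjusted p = 0.22), and 3 fell in the EC. Ppp3cb and Ppp3r1, which encode a catalytic and the regulatory subunit of the phosphatase calcineurin, fell by 0.28 (SE 0.05, adjusted p = 0.020) and by 0.29 (SE 0.06, adjusted p = 0.031). Calm2, 1 of the calmodulin genes, fell by 0.19 (SE 0.04, adjusted p = 0.038). All 3 still passed without Ts65Dn replicate 3, at -0.24, -0.26 and -0.20 (adjusted p = 0.014, 0.037 and 0.042). Their values with GC content and length removed are not given, and the part of base composition in them was not tested. Under that removal 134 of 17049 genes passed in the EC, where 426 did without it. The libraries of Ppp3cb ran from 395 to 479 CPM in Ts65Dn mice and from 508 to 581 CPM in wt mice, without overlap. Between the wt regions 6 were higher and 7 lower in the HIP, with Camk2d, a CaMKII gene, at 49.2 ± 10.1 CPM in the HIP and 199.8 ± 32.5 CPM in the EC (-2.03, SE 0.13), and Rasgrf2, a calcium-regulated Ras activator, at -1.46 (SE 0.08). The list's medians were 0.03 (HIP), 0.0066 (EC) and 0.0098 (wt regions).

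Of 17 genes of postsynaptic scaffolds none passed between genotypes, with Dlgap4 at the lowest p in both regions (0.15, adjusted p = 0.34 in the HIP, and 0.16, adjusted p = 0.052 in the EC), or 0.18 and 0.14 without Ts65Dn replicate 3 (adjusted p = 0.21 and 0.071). The list's medians were 0.02 (HIP) and 0.07 (EC). In the wt HIP 3 were higher and 10 lower than in the EC, with a median of -0.37, and Grip2, an adaptor that binds GluA2, and Dlg1, the SAP97 gene, differed most (-0.90 and -0.87). Of 12 tested genes for co-agonist and glutamate handling none passed between genotypes. Slc1a3, the astrocyte glutamate transporter GLAST, had the lowest p in both regions (-0.19, adjusted p = 0.058 in the HIP, and -0.24, adjusted p = 0.082 in the EC), or -0.17 and -0.25 without that mouse (adjusted p = 0.056 and 0.088), when Slc1a2, the main astrocyte glutamate transporter gene and likewise named after its values were seen, passed in the EC (-0.28, adjusted p = 0.041). The list's medians were 0.03 (HIP), -0.04 (EC) and -0.09 (wt regions). Between the wt regions 3 were higher and 6 lower in the HIP, led by Slc17a8 (1.28), a vesicular glutamate transporter, and Slc1a4 (-0.70), a transporter of neutral amino acids.

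None of the 3 genes listed for RNA editing (Adar, Adarb1 and Adarb2) passed between genotypes, and editing itself was not measured. Adarb2 had the lowest p in the HIP (-0.10, adjusted p = 0.43). In the EC it was Adarb1 (-0.05, adjusted p = 0.77), the gene of the enzyme that edits the Gria2 codon shown above. The list's medians were 0.01 (HIP) and -0.0081 (EC). Between the wt regions the median was 0.10. In the wt HIP Adarb2 was higher (0.94, SE 0.06, adjusted p = 1.7e-08) and Adar lower (-0.46, SE 0.09, adjusted p = 0.00049) than in the EC. Grid1, which encodes a related delta receptor subunit, did not pass between genotypes (0.04, adjusted p = 0.80 in the HIP and 0.08, adjusted p = 0.44 in the EC), and was lower in the wt HIP than in the EC (-0.15, SE 0.04, adjusted p = 0.011).

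Within groups the members moved together in part. After the mean of each group was subtracted, log2 CPM over the 24 libraries correlated most for Gria2 with Gria3 (r = 0.71), Grin1 with Grin2c (0.65), Grin2a with Grin2b (0.62) and Gria1 with Gria2 (0.58). The opposite sign was largest for Grin2d with Grin2b (-0.64) and with Grin2a (-0.61). The GC contents of these genes were 41.3% and 42.6% for Gria2 and Gria3, 58.4% and 61.6% for Grin1 and Grin2c, 49.6% and 47.3% for Grin2a and Grin2b, and 65.6% for Grin2d, and their part in these correlations was not tested. No p is given, because libraries share depth and base composition and each mouse gave 2 libraries.

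The genes most like each member by this measure, among 16591 genes, were as follows, with the first of 3 given with its r. Grin1 was nearest to Shank1 (0.89), a postsynaptic scaffold gene, then to Abhd17a and Cdk5r2, and Grin2a to Ryr2 (0.87), an intracellular calcium channel gene, then to Ppp1r9a and Tmem132b. Grin2b was nearest to B230334C09Rik (0.91), then to Cacna1e and Ntrk3. Grin2c was nearest to Gpr37l1 (0.83), an astrocyte receptor gene, then to Ubqln4 and Btbd6, Grin2d to Samd10 (0.88), then to Map6 and Rhov, and Grin3a to Hcn3 (0.79), a pacemaker channel gene, then to Tmem130 and L1cam. Gria1 was nearest to Serpina3n (0.86), then to Nt5dc3 and E2f3, and Gria2 to Sgip1 (0.89), an endocytosis gene, then to Reps2 and Ube2k. Gria3 was nearest to Gm10419 (0.83), then to Ube2k and Btbd10, and Gria4 to Stard4 (0.84), then to Ubxn2a and Slx4. Ube2k was thus among the 3 nearest of both Gria2 and Gria3.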

How the data were processed

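RNA had been prepared from the HIP and EC of single mice and sequenced as single-end reads. The labels describe a stranded mRNA kit and the study's methods a total RNA kit, so the library type is not settled. The authors aligned the reads with Hisat2 to GRCm38 and deposited raw counts per gene from HTSeq-count, not normalized, with no strand setting given. Per the submitters' processing notes, bcl2fastq 2.17.1.14 made the reads. Other tables hold the fold changes and p-values of the authors' DESeq2 and FCROS comparisons, and were not used. No column of other samples was present, and no row lacked a gene.

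Genes were matched to GENCODE vM21 (GRCm38, 99.6% of identifiers). Tests used edgeR 4.0.16 (R 4.3.3) quasi-likelihood fits over all genes, with TMM, filterByExpr and Benjamini-Hochberg adjustment, called under 0.05. HIP and EC libraries of 1 mouse are paired by the labels (deviations correlated at 0.23 to 0.49 in all 12 mice). The main region fits did not use this pairing, and among the members a mouse block changed only the Grin1 call. P-values measure the spread between the sampled mice, except in the main region fits, which treat the 2 libraries of a mouse as independent. Ratio tests were exact over 924 splits or 64 sign patterns (scipy 1.17.1). CPM in the text use TMM over 24 libraries, and log2 CPM for correlations a prior count of 2. All 10 members are named, with list genes called between genotypes (or the 1 with the lowest p) and the 2 largest called region differences per list. Some items that these rules select are not reported here. For likeness the 3 highest correlations were taken. The edgeR fit was tested on simulated data. Alternatives were DESeq2 1.42.0, its size factors, no filter, at least 10 counts in every library, a replicate block, GC and length removal by splines, and leaving out each mouse. The members and lists were chosen with earlier results of these data known. No 2 libraries were identical.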

Additional observations from a re-analysis of the deposited data

Results flagged for a closer look

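In 48 groups (10 genes and 2 ratios in 4 groups of 6 libraries), 4 had 1 library far from the other 5 by Dixon's criterion at the 95% level, where chance flags about 1 in 20, or 2.4 groups here. For Grin1, the library labelled Ts65Dn replicate 3 was the highest of its EC group, at 381.5 CPM. For Gria3 and Gria4, wt replicate 2 was the lowest of the wt EC, at 275.8 CPM and 131.2 CPM. For Gria4, Ts65Dn replicate 6 was the highest of the Ts65Dn EC, at 166.8 CPM, and without it the genotype difference of Gria4 in the EC was called.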

How the results depend on the processing

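The region differences of Gria1, Gria2, Gria3, Gria4, Grin2a, Grin2d and Grin3a kept their direction and their call under all alternatives run in both genotypes. No member was called between genotypes except those named with their settings in the report. The count of members called rose from 0 to 1 in the HIP with DESeq2, beside 589 of 16466 genes. It was also 1 in DESeq2 with Ts65Dn replicate 3 left out, beside 850 of 15607 genes. In the EC it rose to 1 with DESeq2 without that mouse, beside 1160 of 16603 genes. The count ranged from 0 to 1 in either region when each mouse was left out. These fits without that mouse in DESeq2 and with GC content and length removed, and the length of the longest transcript, were chosen after seeing the data. Replicate numbers are not pairs between genotypes (correlations of -0.19 to 0.14 between HIP libraries and -0.10 to 0.16 between EC libraries), and a replicate block on them gave 29 calls over all genes where 181 were made without it in the HIP, and 36 where 426 were made in the EC. DEG counts with GC content and length removed were 70 of 17355 genes (HIP) and 134 of 17049 genes (EC). With 5 mice left, the paired ratio tests cannot go below 0.0625, so each lost its call when a mouse was left out, at log2 differences of 0.64 to 0.77 (Grin2a to Grin2b, wt), 0.70 to 0.82 (Ts65Dn), 0.92 to 1.01 (Gria1 to Gria2, wt) and 0.90 to 1.005 (Ts65Dn). The Gria1 to Gria2 difference between genotypes in the HIP ranged from 0.11 to 0.20, and its call without Ts65Dn replicate 3 was gained.

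The changes of sign were in values that were not called, and their cause was not tested. With GC content and length removed, the genotype change turned to -0.035 for Grin1 and -0.10 for Grin2c in the HIP, and in the EC to -0.061 for Grin1, -0.013 for Grin2d (from 0.21, 95% interval 0.03 to 0.39) and 0.038 for Gria2, and the region difference of Grin2b to -0.069 in wt and -0.080 in Ts65Dn mice. With Ts65Dn replicate 3 also left out, they were -0.11 for Grin2c, 0.017 for Gria1 and 0.0053 for Gria3 in the HIP, -0.10 for Grin1, -0.024 for Grin2d and 0.056 for Gria2 in the EC, and -0.033 for the region difference of Grin2b in Ts65Dn mice. DESeq2 without that mouse gave -0.00075 for Grin2c and 0.0071 for Gria1 in the HIP and -0.0026 for Grin1 in the EC. Leaving out each mouse gave -0.20 to 0.0060 for Grin2b, -0.00074 to 0.082 for Grin2c and -0.12 to 0.0067 for Gria1 in the HIP, and -0.0020 to 0.074 for Grin1, -0.13 to 0.057 for Grin2c and -0.0051 to 0.077 for Grin3a in the EC. For the interaction it gave -0.044 to 0.077 for Grin1, -0.0042 to 0.13 for Grin2a, -0.089 to 0.027 for Grin2b, -0.033 to 0.12 for Grin2c and -0.020 to 0.066 for Gria3. Of the other settings, the Grin1 interaction was 0.0023 in DESeq2, 0.0021 with DESeq2 size factors, 0.0013 with at least 10 counts, 0.023 with GC content and length removed, and 0.081 and 0.11 in the same DESeq2 and GC fits without Ts65Dn replicate 3. The Grin2b interaction was 0.012 with no replicate block and 0.013 with GC content and length removed without that mouse.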
